A study of Mus musculus with 12 samples.

Results

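The response difference is how much more, or less, a gene changed on delivery of Mef2c, Gata4 and Tbx5 (MGT) in fibroblasts of 3-month-old mice than in fibroblasts of neonatal mice. It is the log2 ratio of MGT to the LacZ control in adult cells minus the same ratio in neonatal cells, computed for every gene from 8 of the 12 libraries of the series. The spread used in its test was estimated from all 12 libraries, including those of 18-month mice. The cells are primary wild-type mouse cardiac fibroblasts collected on day 3. The 4 groups are LacZ neonatal, MGT neonatal (both postnatal days 1 to 3), LacZ adult and MGT adult (both 3 months), with 2 libraries in each. LacZ, the gene of a bacterial enzyme with no role in heart development, stands for the delivery without the 3 factors. The labels do not give the vector, the promoter that drives it, the number of mice behind a library or whether libraries of a group are separate cultures, so p-values measure only the spread between these libraries. Age and cell preparation cannot be told apart, since each age has its own cells. Of 16383 listed genes, 11940 had enough counts to be tested, and 536 of them had a response difference at an adjusted p below 0.05.

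Mef2c, Gata4 and Tbx5 are transcription factors that act together in the developing heart, binding near each other at the genes of the contractile apparatus. Forced into fibroblasts they switch on part of the cardiomyocyte program and lower part of the fibroblast one, a conversion known as direct cardiac reprogramming, which is generally less efficient in adult than in neonatal cells. A ratio can differ between ages in several ways. The control cells can start from different levels, the treated cells can reach different levels, or both. The difference between adult and neonatal cells under LacZ is called the starting gap here, and the same difference under MGT the gap reached. The response difference is the gap reached minus the starting gap. All 3 come from the same 8 libraries, so sorting genes by which gap was called describes them and is no independent test. A gap that was not called is not shown to be 0.

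Libraries held 12553883 to 16339091 counts. Replicates of the groups differed by 2.31 (LacZ neonatal) to 4.95 (MGT neonatal) chi-square units per degree of freedom, except LacZ adult at 22.2, whose replicates stand farther apart. The fibroblast identity list, 26 genes, had counts for every member in each group except Wif1 at 0 in LacZ adult, with summed levels of 42760 and 43190 CPM (counts scaled to library size) in LacZ neonatal, 36020 and 35740 in MGT neonatal, 32530 and 27200 in LacZ adult and 25590 and 26260 in MGT adult. Of cardiomyocyte carry-over markers, Myh6, Mb, Pln and Ckmt2 had 0 counts in the 4 adult libraries, while Myh6, the main adult ventricular myosin of mice, stood at 8.26 and 7.63 CPM in LacZ neonatal and 7.53 and 8.62 in MGT neonatal. A count of 0 allows up to 3 counts, or 0.169 to 0.2078 CPM in an adult library, for counting error only. In such bulk RNA, fewer cells of a type and less RNA per cell cannot be told apart.

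The 536 genes are 4.49% of those tested. The log2 response was higher in adult cells for 337 (2.82%) and lower for 199 (1.67%), and it differed at least 2-fold for 202 and 54 of them. The starting gap alone was called for 176 (32.8% of the 536 and 1.47% of all tested genes), with 117 (0.98% of all) higher and 59 (0.494%) lower in response. The gap reached alone was called for 112 (20.9%, or 0.938% of all), with 58 (0.486%) higher and 54 (0.452%) lower. Both gaps had the same sign for 202 (37.7%, or 1.69% of all), with 132 (1.11%) higher and 70 (0.586%) lower. They had opposite signs for 43 (8.02%, or 0.36% of all), with 29 (0.243%) higher and 14 (0.117%) lower. Neither gap was called for 3 (0.0251%), which are Arl6ip1 and Apba1 with a lower (0.0168%) and Cerk with a higher response (0.00838%). As background, a starting gap was called for 35.9% of all tested genes (16.7% higher and 19.1% lower in adult cells) and a gap reached for 29.9% (14.0% and 15.9%). A response was called for 9.24% in neonatal cells (5.22% rose, 4.02% fell) and for 20.4% in adult cells (11.0% and 9.35%). The ages lay closer together under MGT than under LacZ for 350 of the 536 genes (65.3%) and farther apart for 186. The same split was not computed over all tested genes. These genes were selected by the response difference, which is built from both gaps, so the share describes the selected genes only. Among the 337 genes with the higher adult response, 248 started lower in adult cells and 30 started higher, while 102 also ended lower and 117 ended higher. Among the 199 with the lower adult response, 119 started higher and 24 lower. Leaving out LacZ adult replicate 1 raised the count to 1396, and leaving out any other of the 8 libraries gave 290 to 614. All 536 estimates had the same sign in each of these 8 fits. With the spread estimated from the 8 libraries alone, 453 genes were called, 277 higher and 176 lower. Of these, 433 were among the 536 (80.8% of them).

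**Figure D1:**
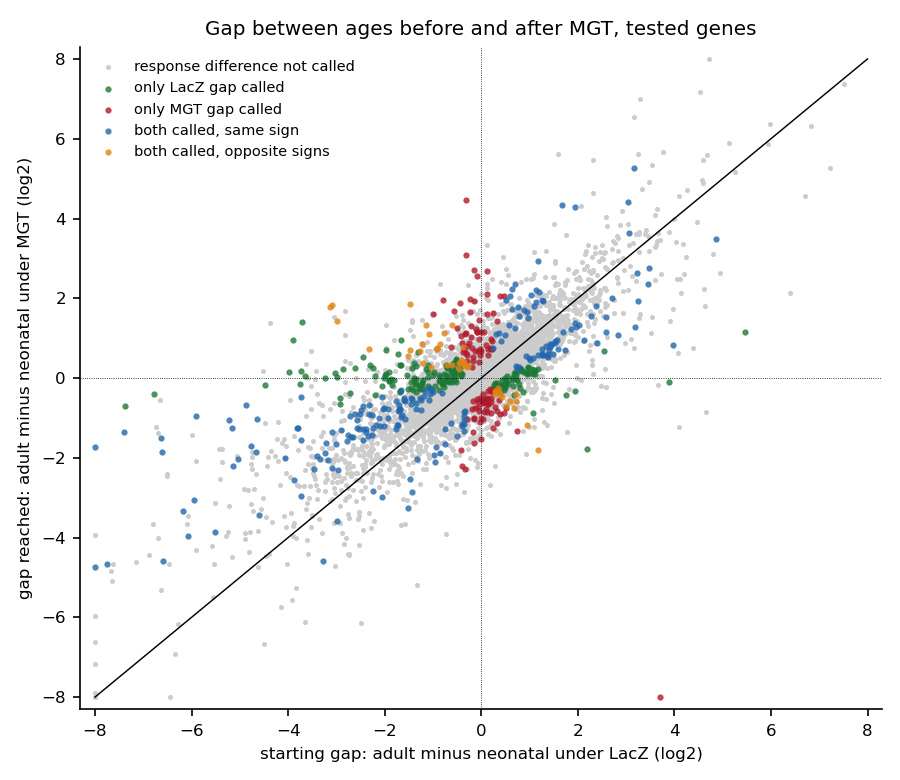
Starting gap (x axis, adult minus neonatal under LacZ, log2) against gap reached (y axis, adult minus neonatal under MGT, log2) for the 11940 tested genes, with values beyond 8 drawn at 8. The 3 called genes with neither gap called are not drawn. Vertical distance from the diagonal is the response difference, except for genes drawn at 8. Of the 176 green genes, 162 had a gap reached under 0.5 in size. Of the 112 red genes, 104 had a starting gap under 0.5 in size.

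**Figure D2:**
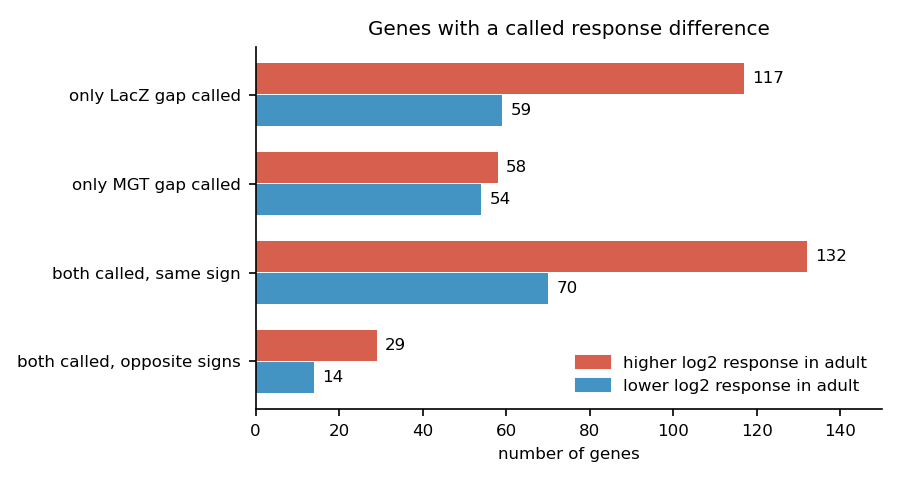
Number of genes with a response difference by which gap between ages was called, split into those with the higher and the lower log2 response in adult cells. The bars give 117 and 59 genes with only a starting gap, 58 and 54 with only a gap reached, 132 and 70 with both of one sign, and 29 and 14 with both of opposite signs.

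Higher adult responses were mostly rises. Of the 337 genes, 137 rose in adult cells only, 115 rose at both ages, 34 fell in neonatal and rose in adult cells, 40 fell in neonatal cells only and 5 fell at both ages, with 6 called at neither age. Of the 199 genes with a lower adult response, 103 fell in adult cells only, 57 fell at both ages and 23 rose in neonatal cells only. A larger ratio was not always a larger amount of RNA: 32 of the 115 genes that rose at both ages gained fewer CPM in adult cells. These 32 were 28 of 46 genes whose gaps were both called with the same sign, 4 of 39 with only a starting gap,, 0 of 18 with only a gap reached and 0 of 12 with opposite gaps. In the 117 genes with only a starting gap and a higher response, the median starting gap was -1.22, the median gap reached 0.04, the median neonatal response 0.04 and the median adult response 1.11 on the log2 scale.

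Of the delivered factors, Tbx5 and Mef2c had a higher response in adult cells and Gata4 was not called. Tbx5, a T-box factor of the heart field, stood at 2.43 and 1.97 CPM in LacZ neonatal, 218 and 269 in MGT neonatal, 1.21 and 0.789 in LacZ adult and 289 and 279 in MGT adult. Adult control libraries were below neonatal ones, and under MGT both adult libraries were above both neonatal ones by a margin smaller than the spread of the neonatal pair. Its starting gap was -1.15 ± 0.33, its gap reached 0.23 ± 0.11, which was not called, and its response difference 1.37 ± 0.34 (SE, edgeR adjusted p = 0.026). Mef2c, a MADS-box factor of muscle, went from 18.2 and 16.5 to 178 and 218 CPM in neonatal and from 10.1 and 8.9 to 214 and 201 in adult cells. The controls do not overlap and the MGT groups do. Its response difference was 0.94 ± 0.19 (SE, edgeR adjusted p = 0.0049), with a starting gap of -0.87 ± 0.15 and a gap reached of 0.07 ± 0.11. Gata4, the zinc-finger factor that fibroblasts of the heart already express, rose from 164 and 154 to 268 and 304 CPM in neonatal and from 123 and 116 to 239 and 236 in adult cells. Adult libraries were lower under both vectors, and its response difference of 0.15 ± 0.12 (95% interval -0.12 to 0.41, edgeR adjusted p = 0.66) was not called. Reads from delivered and endogenous copies of these genes cannot be told apart in the counts. The Tbx5 call was lost under limma voom and without LacZ adult replicate 2, LacZ neonatal replicate 1 or MGT adult replicate 1, with estimates of 1.09 to 1.70 over all settings.

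Among genes of the sarcomere and Z-disc, the repeating contractile unit and its anchoring plates, most response differences were not called. Of 45 listed genes 27 were tested, 6 had a higher and 1 a lower response in adult cells (2.82% and 1.67% of all tested genes), and 20 were not called, with a median response difference of 0.91 (0.86 with genes at 0 counts at their bound) against -0.0035 for all tested genes. The list started lower in adult cells for 17 of the 27 members (19.1% of all tested genes) and ended lower for 18 (15.9% of all). It rose at the test's threshold for 21 in neonatal and 20 in adult cells (5.22% and 11.0% of all tested genes). Of the 14 members with at least 4 counts in each group, 11 had the larger log2 response in adult cells, but the gain in CPM was larger in adult cells for only 5 of the 27.

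Tnnt2, cardiac troponin T of the thin filament, was at 308 and 262 CPM in LacZ neonatal, 878 and 1270.0 in MGT neonatal, 2.81 and 2.99 in LacZ adult and 277 and 315 in MGT adult. MGT adult libraries overlap the LacZ neonatal ones, and the MGT groups do not overlap. Its starting gap of 97.9-fold narrowed to 3.63-fold, its response difference was 4.75 ± 0.25 (SE, edgeR adjusted p = 9.6e-10), and it gained 789 CPM in neonatal against 293 in adult cells. Des, desmin of the intermediate filaments around the Z-disc, went from 14.8 and 14.6 to 249 and 313 CPM in neonatal and from 3.83 and 3.94 to 254 and 278 in adult cells. Controls were lower in adult cells and the MGT libraries overlap, so its response difference of 1.83 ± 0.18 (SE, edgeR adjusted p = 3.3e-06) came with gains of 266 and 262 CPM. Myom2, an M-band protein, went from 2.83 and 2.4 to 84 and 123 CPM in neonatal and from 0.83 and 0.563 to 118 and 113 in adult cells, with a response difference of 2.07 ± 0.41 (SE, edgeR adjusted p = 0.005). The adult MGT pair lies inside the spread of the neonatal MGT pair. Ldb3, a PDZ-LIM protein of the Z-disc, rose from 18.2 and 17.7 to 76.9 and 95.5 CPM and from 3.19 and 3.38 to 34.7 and 35.8, a response difference of 1.16 ± 0.21 (SE, edgeR adjusted p = 0.002). Adult libraries were lower than neonatal ones under both vectors.

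The remaining muscle calls rest on groups with almost no counts. Myl7, the atrial myosin light chain, was at 8.2 and 9.28 CPM in LacZ neonatal and 47.2 and 74.9 in MGT neonatal, had 0 counts in both LacZ adult libraries and reached 18.5 and 18.1 in MGT adult. It therefore rose at least 204-fold in adult cells against a floor of 3 counts over the group, yet ended below both neonatal MGT libraries. Xirp2, an actin-binding protein of muscle cell junctions, went from 1.02 and 0.533 to 90.5 and 52 CPM in neonatal cells. In adult cells it went from 3 counts over both LacZ libraries to 201 and 180.4 CPM, a ratio of 2131 with a counting interval of 729 to 10340. Here the adult MGT libraries exceeded both neonatal ones. The only member with a lower call, Myh8, a perinatal skeletal myosin heavy chain in a cluster of similar genes, had 0 counts in LacZ neonatal, 1.57 and 3.62 CPM in MGT neonatal, 3 counts in LacZ adult and 0 in MGT adult. It rose at least 31.5-fold in neonatal cells. The Xirp2 call was lost under limma voom and without LacZ adult replicate 2 or LacZ neonatal replicate 1, and the Myh8 call in the fit of the 8 libraries alone and without LacZ adult replicate 2, LacZ neonatal replicates 1 or 2 or MGT adult replicates 1 or 2.

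**Figure D3:**
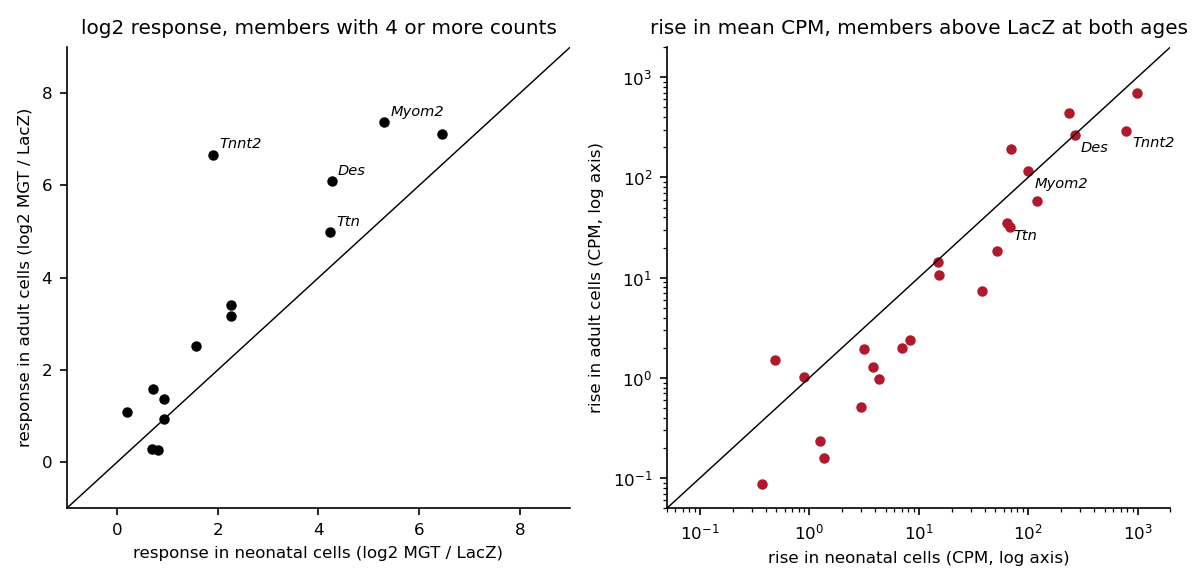
Sarcomere and Z-disc genes, neonatal (x axis) against adult cells (y axis). On the left is the log2 ratio of MGT to LacZ for 14 members with at least 4 counts in each group, of which 11 lie above the diagonal; on the right is the rise in CPM (log axes) for 24 members whose mean CPM was higher under MGT at both ages, called or not, of which 5 lie above it.

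Of 25 tested calcium handling and channel genes, 2 had a higher and 1 a lower adult response, against 2.82% and 1.67% of all tested genes. Casq2, which stores calcium in the sarcoplasmic reticulum, rose from 2.15 and 3.09 to 29.2 and 42.9 CPM in neonatal cells, and from 3 counts to 11 and 10.9 CPM in adult cells, a ratio of 122 (counting interval 41.4 to 595). Adult cells ended lower. Kcnj5, a potassium channel of atrial cells, rose from 9.39 and 8.91 to 16.9 and 21.9 and from 0.256 and 0 to 1.61 and 2.22 CPM, the last pair below all neonatal libraries. Slc8a1, the sodium-calcium exchanger, rose from 41.5 and 47.9 to 87.7 and 98.3 CPM in neonatal cells (edgeR adjusted p = 5.3e-06) and stood at 50.4 and 36 and then 53.8 and 51.7 in adult cells (edgeR adjusted p = 0.11). Controls overlap, and MGT adult lies below MGT neonatal, with a response difference of -0.76 ± 0.17 (SE, edgeR adjusted p = 0.014). The call was lost for Casq2 under limma voom and without LacZ adult replicates 1 or 2, LacZ neonatal replicate 2 or MGT adult replicates 1 or 2. It was lost for Kcnj5 under limma voom, in the fit of the 8 libraries alone and without LacZ adult replicate 2, LacZ neonatal replicates 1 or 2, MGT adult replicates 1 or 2 or MGT neonatal replicate 1. For Slc8a1 it was lost in the fit of the 8 libraries alone and without LacZ neonatal replicate 1, MGT adult replicates 1 or 2 or MGT neonatal replicate 2 (estimates -0.98 to -0.51).

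Of 19 tested cardiac transcription factors and natriuretic peptides, 4 had a higher and 1 a lower adult response (2.82% and 1.67% over all genes). Nppa, the atrial natriuretic peptide, was at 3.56 and 4.8 CPM in LacZ neonatal and 13 and 19.5 in MGT neonatal, and at 0.256 and 0 and 3.85 and 4.16 in the adult groups, so that adult cells under MGT came to the neonatal control level. Nppb, the B-type peptide, went from 0.283 and 1.6 to 5.84 and 6.63 CPM and from 0.128 and 0.169 to 6.82 and 7.97, with both adult MGT libraries above the neonatal ones. Myocd, the coactivator of smooth and cardiac muscle genes, went from 2.32 and 2.29 to 7.47 and 5.67 and from 0.128 and 0.451 to 5.15 and 3.19 CPM, with overlap under neither LacZ nor MGT. Tbx3 had a response difference of 1.47 ± 0.34 (SE, edgeR adjusted p = 0.017) and Tbx20 one of -0.53 ± 0.15 (SE, edgeR adjusted p = 0.048); both are T-box factors of the developing heart. The Nppa call was lost under limma voom, in the fit of the 8 libraries alone and without LacZ adult replicate 2, LacZ neonatal replicate 2 or MGT adult replicate 2. The Nppb call was lost under limma voom, in the fit of the 8 libraries alone and without LacZ adult replicates 1 or 2, LacZ neonatal replicate 2, MGT adult replicates 1 or 2 or MGT neonatal replicates 1 or 2. The Myocd call was lost under limma voom, in the fit of the 8 libraries alone and without LacZ adult replicate 1, LacZ neonatal replicates 1 or 2, MGT adult replicate 1 or MGT neonatal replicate 2.

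The largest response difference among genes named here with at least 4 counts in each group was that of Upk1b. Upk1b, a uroplakin of the mesothelium that covers the heart, was at 144 and 139 CPM in LacZ neonatal, 83 and 89.2 in MGT neonatal, 0.958 and 0.732 in LacZ adult and 30.9 and 36.6 in MGT adult. It fell in neonatal and rose in adult cells, and no groups overlap. Its starting gap of 168-fold became 2.56-fold, a response difference of 6.04 ± 0.22 (SE, edgeR adjusted p = 3.4e-12). Of 16 tested epicardial and mesothelial markers, 7 had a higher and 1 a lower adult response, against 2.82% and 1.67% of all tested genes. Of the 16, 13 started lower and 12 ended lower in adult cells (19.1% and 15.9% of all), and the median response difference was 1.79 (1.23 with genes at 0 at their bound). The lower one was Aldh1a2, which makes retinoic acid, at -0.61 ± 0.14. Krt18, a keratin of simple epithelia, stood at 10.2 and 9.23 CPM in LacZ neonatal, 9.83 and 13 in MGT neonatal, 3 counts in LacZ adult and 4.03 and 4.02 CPM in MGT adult, a ratio of 44.8 in adult cells (counting interval 15.0 to 220.3). Bnc1, a zinc-finger factor of epithelia, was high only in neonatal cells, at 49.5 and 44.6 CPM under LacZ and 14.3 and 14 under MGT, against 2 counts in LacZ adult and 16 counts in MGT adult. The Bnc1 call was lost under DESeq2 and without MGT adult replicate 2. The summed level of 17 mesothelial markers was 1464 and 1346 CPM in LacZ neonatal, 755.7 and 788.0 in MGT neonatal, 845.4 and 896.5 in LacZ adult and 689.0 and 711.2 in MGT adult, with Krt14 and Krt8 at 0 in LacZ adult and Krt14 at 0 in MGT adult. Aldh1a1 and Aldh1a2 made up most of the adult sums. Aldh1a1 stood at 230.0 and 253.3 CPM in LacZ adult and 158.8 and 146.8 in MGT adult. Aldh1a2 stood at 471.0 and 493.2 in LacZ adult and 301.4 and 325.1 in MGT adult, against 51.15 and 51.69 in LacZ neonatal. The fall of the adult sum does not describe the other markers: of the 16 tested, MGT raised 6 and lowered 3 in adult cells (11.0% and 9.35% of all tested genes). The part of such cells in these response differences was not tested.

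Markers of vessel cells also had wide starting gaps. Flt1, a receptor of vascular endothelial growth factor, went from 53.9 and 60.4 to 119.6 and 126 CPM in neonatal and from 1.6 and 1.47 to 63.5 and 54.9 in adult cells. The adult MGT libraries came to the level of the neonatal controls, with a response difference of 4.17 ± 0.23 (SE, edgeR adjusted p = 9.6e-10). Cspg4, the NG2 proteoglycan of pericytes, rose from 121 and 131 to 218 and 238 CPM and from 2.68 and 1.47 to 30.5 and 23.8, a response difference of 2.88 ± 0.25 (SE, edgeR adjusted p = 6.9e-07), ending far below. Emcn and Pecam1, surface proteins of endothelium, had response differences of 2.13 ± 0.30 (SE, edgeR adjusted p = 0.00023) and 1.17 ± 0.28 (SE, edgeR adjusted p = 0.02); Pecam1 was at 60.4 and 73 CPM in LacZ neonatal and 6.33 and 3.88 in MGT adult. Of 17 tested endothelial markers 3 were higher and 1 lower, and of 16 smooth muscle and pericyte markers 3 were higher and 0 lower, against 2.82% and 1.67% of all tested genes. The lower endothelial marker was Ptprb, a receptor-type phosphatase of endothelium, at -0.59 ± 0.14 (SE, edgeR adjusted p = 0.016). The endothelial sum over 19 genes was 1590 and 1629 CPM in LacZ neonatal, 1598 and 1480 in MGT neonatal, 681.6 and 637.4 in LacZ adult and 641.7 and 645.5 in MGT adult, with no member at 0. The smooth muscle and pericyte sum was 4312 and 4275, 5321 and 5616, 1816 and 1776, and 2580 and 2666 CPM in the same order, with Vtn at 0 throughout. Their part in the result was not tested. The Pecam1 call was lost under limma voom, in the fit of the 8 libraries alone and without LacZ neonatal replicate 2, MGT adult replicate 1 or MGT neonatal replicate 2 (estimates 0.76 to 1.46), and the call of Tagln, a smooth muscle actin-binding protein with a response difference of 0.50 ± 0.12, without LacZ neonatal replicates 1 or 2, MGT adult replicates 1 or 2 or MGT neonatal replicate 1 (estimates 0.45 to 0.56).

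Genes with only a starting gap included surface and structural genes that adult cells brought to the neonatal level. Itga7, the laminin-binding integrin of muscle, was at 65 and 58.5 CPM in LacZ neonatal, 117 and 140.2 in MGT neonatal, 9.01 and 8 in LacZ adult and 145 and 154 in MGT adult. Only the controls are far apart, with a starting gap of -2.86 ± 0.13, a gap reached of 0.22 ± 0.10 and a response difference of 3.08 ± 0.17 (SE, edgeR adjusted p = 9.6e-10). Krt7, another keratin, fell from 27.6 and 23.6 to 9.16 and 11.8 CPM in neonatal cells while it rose from 1.85 and 1.92 to 9.18 and 9.49 in adult cells, so that the MGT groups met from opposite sides. Krt7 differed in response by 3.60 ± 0.25 (SE, edgeR adjusted p = 5.4e-08). Lrrc3b, a leucine-rich repeat protein, rose from 3.4 and 4.37 to 8.26 and 9.4 and from 0.0639 and 0.394 to 9.43 and 10.2 CPM. Lrrc3b differed in response by 4.14 ± 0.46 (SE, edgeR adjusted p = 1.1e-05). Ifi27l2b, a member of a family of similar genes among which reads may be split, was level in neonatal cells at 9.73 and 10.2 and then 10.1 and 7.71 CPM, and rose from 0.83 and 1.24 to 9.12 and 8.73 in adult cells. Ifi27l2b differed in response by 3.25 ± 0.31 (SE, edgeR adjusted p = 1.9e-06). In the last of these genes the LacZ libraries do not overlap and the MGT libraries do. Ptprq, a receptor-type phosphatase, had both gaps called: it fell from 47.1 and 44.5 to 17 and 18.2 CPM in neonatal cells and rose from 2.11 and 1.07 to 13.2 and 8.73 in adult cells. Ptprq differed in response by 4.19 ± 0.30 (SE, edgeR adjusted p = 6.9e-08). Adult cells stayed below neonatal ones in each pair of libraries of that gene. In Ccl20, a chemokine, MGT brought adult cells from 6 and 6.59 to 16.1 and 15.4 CPM and neonatal cells from 25.8 and 24.2 to 14.8 and 14.9.

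Interferon response genes with a response difference differed mainly in the level reached. These genes are switched on by interferon through a factor complex that holds STAT2 and IRF9 and binds the interferon-stimulated response element (ISRE) in their promoters, and many of their products restrict viruses. Of 54 listed genes 47 were tested: 20 had a lower response in adult cells and 0 a higher one, against 1.67% and 2.82% of all tested genes, and 27 were not called. The estimate was below 0 in all 47, against 50.7% of all tested genes, with a median of -0.64. One-sided signs were not particular to this list. The log2 response was higher in adult cells for only 7 of 48 cell cycle and 2 of 39 oxidative phosphorylation genes, with smaller medians of -0.105 and -0.109. MGT lowered 30 members in neonatal and 45 in adult cells (4.02% and 9.35% of all tested genes). MGT raised 0 members at either age (5.22% and 11.0% of all). Of the 20 called genes, 14 had only a gap reached, 3 only a starting gap, 2 both of one sign and 1 both of opposite signs. Without LacZ neonatal replicate 1 or MGT neonatal replicate 1 the count of 20 fell to 9, without LacZ neonatal replicate 2 or MGT adult replicate 2 to 11, without MGT adult replicate 1 to 10, and without the other libraries it was 25 to 28; DESeq2 called 11. In each fit that left out a library, 45 to 47 of the 47 estimates stayed below 0, with medians of -0.79 to -0.48.

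Promoter windows of 4 of these genes are shown because their products mark the response and their ISRE letters can be read in place. Each window runs from 250 bases before to 50 bases after the RefSeq start of the gene (GRCm38.p6), on the gene's strand, 5′ to 3′, with ISRE letters (GAAA, any 2 bases, GAAA) on either strand in capitals.
Rsad2: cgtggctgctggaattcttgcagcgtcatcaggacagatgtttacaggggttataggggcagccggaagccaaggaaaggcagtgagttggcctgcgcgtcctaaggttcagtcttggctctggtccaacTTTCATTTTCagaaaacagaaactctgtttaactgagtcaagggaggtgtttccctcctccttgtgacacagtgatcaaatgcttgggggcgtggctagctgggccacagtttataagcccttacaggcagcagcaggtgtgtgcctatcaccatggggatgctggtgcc
Cxcl10: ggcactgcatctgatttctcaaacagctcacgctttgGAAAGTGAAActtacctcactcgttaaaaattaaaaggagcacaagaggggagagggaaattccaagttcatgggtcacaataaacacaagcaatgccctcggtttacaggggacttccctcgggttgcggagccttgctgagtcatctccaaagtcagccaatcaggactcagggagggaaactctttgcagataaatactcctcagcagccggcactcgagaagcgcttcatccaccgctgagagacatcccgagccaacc
Ifit1: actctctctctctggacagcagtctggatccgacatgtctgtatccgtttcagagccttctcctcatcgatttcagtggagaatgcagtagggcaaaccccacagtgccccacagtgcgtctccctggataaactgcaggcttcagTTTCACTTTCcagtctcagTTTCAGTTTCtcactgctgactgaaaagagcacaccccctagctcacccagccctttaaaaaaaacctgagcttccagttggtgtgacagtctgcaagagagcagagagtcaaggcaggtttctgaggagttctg
Isg15: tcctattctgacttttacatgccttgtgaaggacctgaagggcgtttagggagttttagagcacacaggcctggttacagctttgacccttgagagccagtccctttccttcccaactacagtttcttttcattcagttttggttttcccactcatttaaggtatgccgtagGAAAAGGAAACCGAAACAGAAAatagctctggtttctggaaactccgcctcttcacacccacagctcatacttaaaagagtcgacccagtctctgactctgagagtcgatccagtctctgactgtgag
The windows are chr12:26456403-26456702 (minus strand) for Rsad2, chr5:92348840-92349139 (minus strand) for Cxcl10, chr19:34640639-34640938 (plus strand) for Ifit1 and chr4:156200769-156201068 (minus strand) for Isg15. Rsad2 and Cxcl10 hold 1 match each, Ifit1 holds 2, and Isg15 holds 3 that overlap each other. Cmpk2, the neighbour of Rsad2, has a window with no match. At least 1 window of the gene held the letters in 3.99% of 27025 genes, in 3.59% of 9427 tested genes, in 15.4% (23 of 149) of genes with a lower and 2.19% (5 of 228) of genes with a higher adult response. Of the 20 called interferon genes 12 have a window and 6 of these hold the letters, and outside the interferon list 17 of 137 genes with a lower adult response do (12.4%). The T-box letters GGTGTGA occurred in 4.26% of tested genes, 8.33% of genes with a higher and 2.68% of genes with a lower adult response, and the GATA letters AGATAA in 7.71%, 9.65% and 9.4%. The MEF2 element occurred in 0.541%, 1.75% and 0.671%. A match of letters is a description and not a bound site.

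Rsad2, the antiviral enzyme viperin, was at 126 and 169 CPM in LacZ neonatal, 83.6 and 77.3 in MGT neonatal, 159 and 133 in LacZ adult and 30.1 and 25.7 in MGT adult. Controls overlap, and both adult MGT libraries lie below the neonatal ones, a response difference of -1.51 ± 0.22 (SE, edgeR adjusted p = 0.00035) with a starting gap of -0.01 ± 0.15 and a gap reached of -1.52 ± 0.17. Cxcl10, a chemokine that draws T cells, fell from 51.7 and 76.4 to 29.4 and 31.2 CPM in neonatal and from 49.7 and 47.7 to 8 and 5.13 in adult cells. Cxcl10 differed in response by -1.80 ± 0.31 (SE, edgeR adjusted p = 0.0013). Ifit1, which binds viral RNA, fell from 297 and 334 to 231 and 185 and from 439 and 438 to 112 and 114 CPM. Ifit1 differed in response by -1.35 ± 0.27 (SE, edgeR adjusted p = 0.0057), and its neonatal fall missed the threshold (edgeR adjusted p = 0.057). Adult libraries lay above neonatal ones under LacZ, a gap that was not called, and below them under MGT. Isg15, a ubiquitin-like modifier, went from 263 and 279 to 218 and 181 CPM and from 287 and 333 to 142 and 142, a response difference of -0.69 ± 0.19 (SE, edgeR adjusted p = 0.047). The dynamin-like GTPases Mx1 and Mx2, which resemble each other closely enough for reads to be split between them, gave -2.99 ± 0.47 and -1.51 ± 0.24. Mx1 was at 4.53 and 8.48 CPM in LacZ neonatal, 3.54 and 3.8 in MGT neonatal, 17.5 and 12.3 in LacZ adult and 1.18 and 0.9 in MGT adult, so the order of the ages turned round. Cmpk2, a mitochondrial nucleotide kinase, fell from 57.4 and 71.5 to 37.7 and 33.1 and from 53.5 and 63.3 to 11.2 and 11.8 CPM. Cmpk2 differed in response by -1.48 ± 0.26 (SE, edgeR adjusted p = 0.0016), a call lost under DESeq2 (estimates -1.65 to -1.33).

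Among factors that act upstream of these genes, Stat2 at -0.61 ± 0.19, Irf9 at -0.49 ± 0.14, Irf7 at -0.66 ± 0.22 and Irf1 at -0.51 ± 0.19 were not called. The starting gap was small in this list, with a median of 0.16 against 0.0027 for all tested genes; it was called higher in adult cells for 15 members and lower for 3 (16.7% and 19.1% of all). The gap reached was called lower for 29 and higher for 1 (15.9% and 14.0% of all), with a median of -0.47. The list summed to 6145 and 6529 CPM in LacZ neonatal, 5033 and 4235 in MGT neonatal, 7264 and 7093 in LacZ adult and 3324 and 3295 in MGT adult. Both adult MGT libraries lie below every other library of the 4 groups. The same sum was 928.9 and 1239 CPM in LacZ and 906.5 and 955.9 in MGT libraries of 18-month mice. Of 13 tested complement and antigen presentation genes 1 had a higher response, Cd55, and 2 a lower one, Tap2 and H2-Q4 (2.82% and 1.67% of all tested genes). The other 10 were not called. Tap1, a member of the interferon list that carries peptides to class I molecules, ended 2.01-fold lower in adult cells (edgeR adjusted p = 4.2e-07), with no starting gap called. Tap2, its partner, had a response difference of -0.79 ± 0.13 (SE, edgeR adjusted p = 0.0013). The class I gene H2-Q4, which has close copies, had one of -0.68 ± 0.15. The H2-Q4 call was lost without LacZ neonatal replicate 2, MGT adult replicate 2 or MGT neonatal replicate 1 (estimates -0.82 to -0.52). Iigp1 and Slfn8, interferon-induced genes with similar copies, had response differences of -1.21 ± 0.27 (SE, edgeR adjusted p = 0.012) and -1.09 ± 0.22 (SE, edgeR adjusted p = 0.0058) with only the starting gap called; the Iigp1 call was lost under DESeq2 and without LacZ neonatal replicate 1, MGT adult replicate 1 or MGT neonatal replicate 1 (estimates -1.42 to -0.95).

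**Figure D4:**
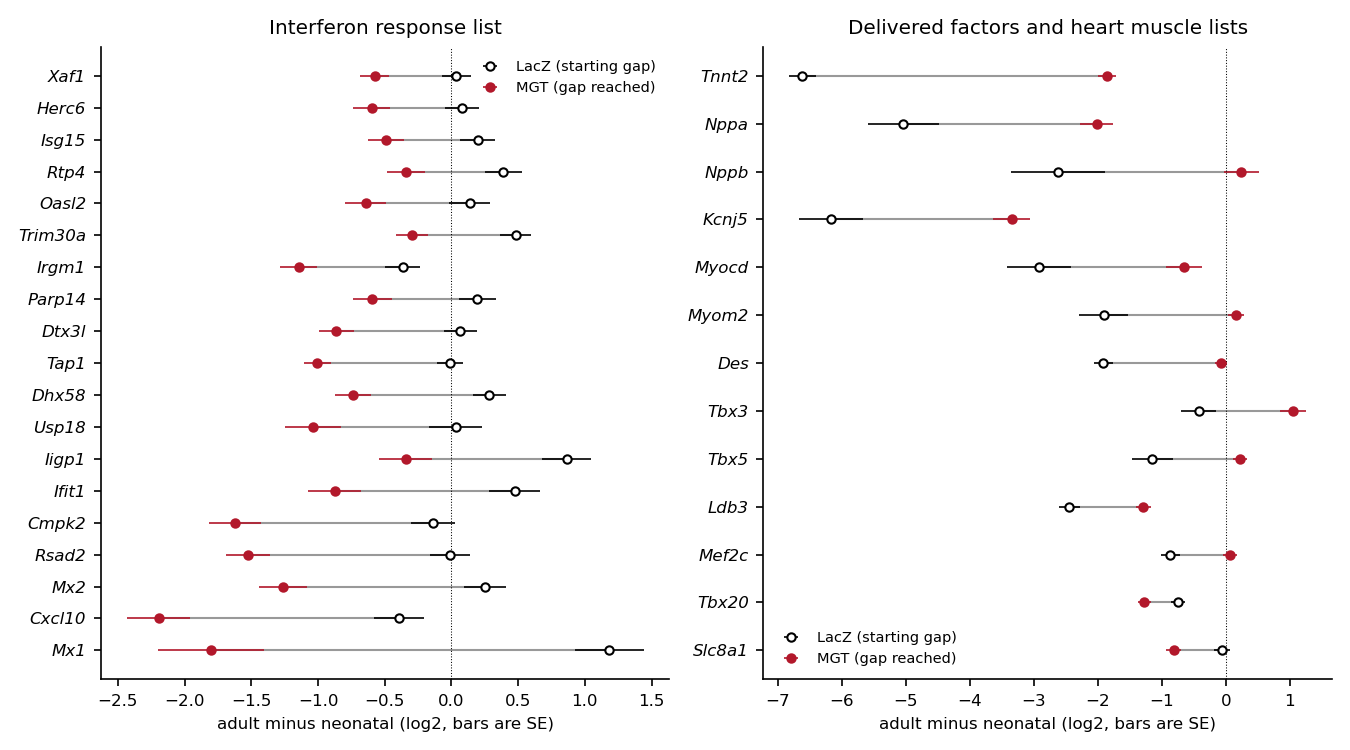
Adult minus neonatal difference (log2, bars are SE) under LacZ (open points) and under MGT (red points) for genes with a response difference and at least 4 counts in each group. Of the 20 called genes of the interferon list, 1 of which is not drawn, 14 have only the MGT gap called away from 0. In the panel of delivered factors and heart muscle lists, Tbx5, Mef2c, Des and Myom2 are among the genes with only the open point called.

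**Figure D5:**
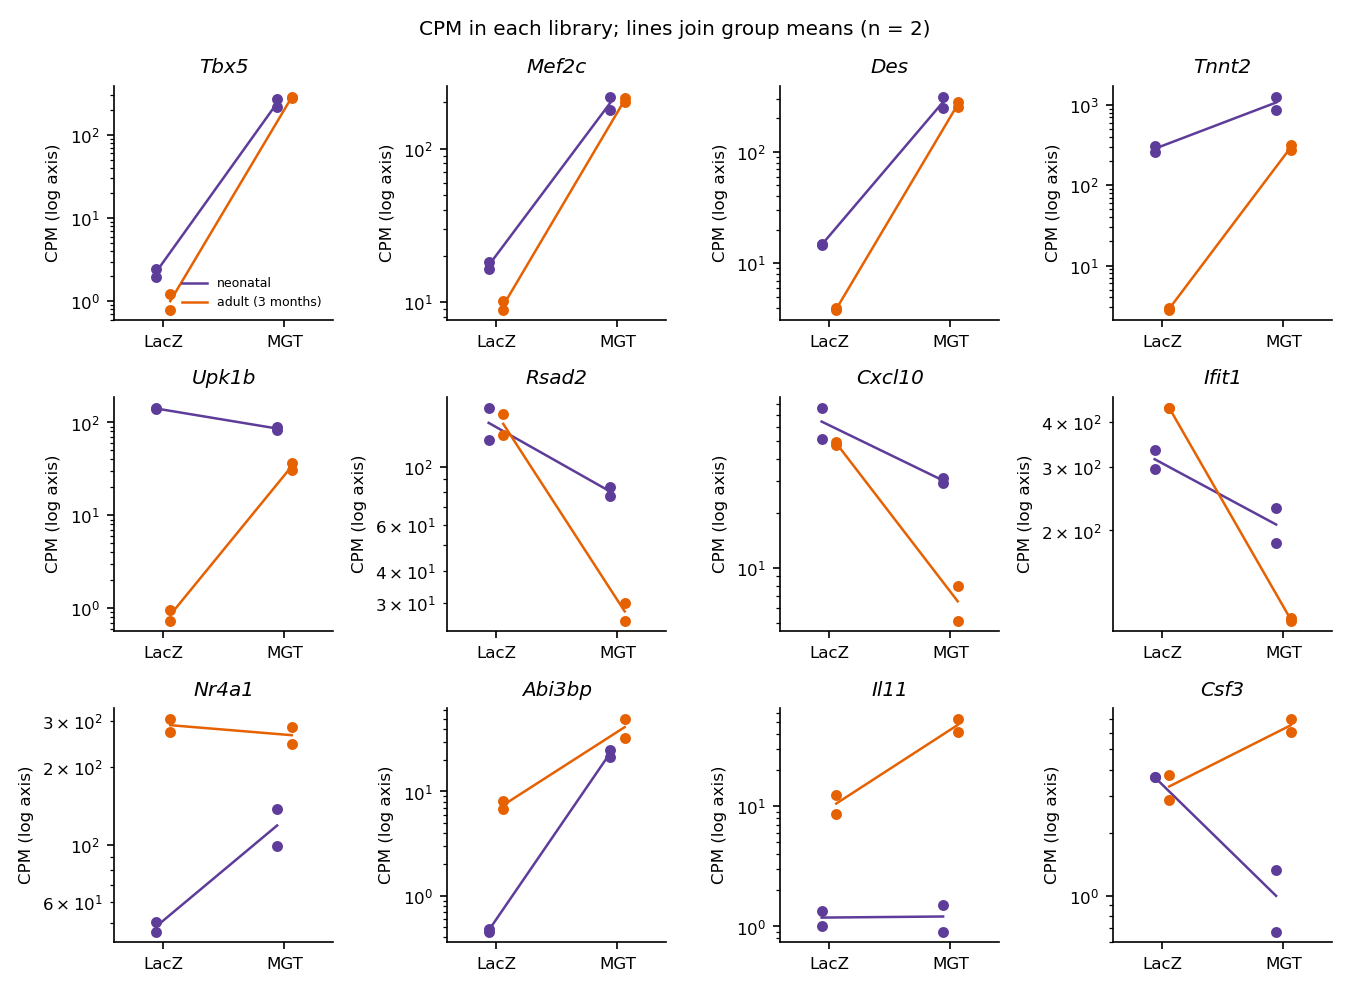
CPM (log axis) of 12 genes in each neonatal (purple) and adult (orange) library under LacZ and MGT, with lines joining the means of 2 libraries. Tbx5, Mef2c and Des start apart and meet, Rsad2 and Cxcl10 start together and part, and Upk1b, Nr4a1 and Il11 differ under both vectors.

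In 58 genes only the gap reached was called and the adult response was the higher one. Csf3, the granulocyte colony-stimulating factor, fell from 3.68 and 3.68 to 0.674 and 1.33 CPM in neonatal cells and rose from 2.87 and 3.77 to 6.01 and 7 in adult cells. Csf3 differed in response by 2.84 ± 0.45 (SE, edgeR adjusted p = 0.00066). Controls overlap and the MGT groups do not. Plaur, the urokinase receptor, stood at 59.2 and 56.2 and then 60.7 and 57.1 CPM in neonatal cells and rose from 46.6 and 52.7 to 123 and 117 in adult cells. Plaur differed in response by 1.24 ± 0.14 (SE, edgeR adjusted p = 1.3e-05). Csf1r, the macrophage colony-stimulating factor receptor, was flat in neonatal cells at 18.9 and 19.5 and then 18.9 and 21 CPM, and rose from 18.8 and 21.1 to 46 and 43.3 in adult cells. Csf1r differed in response by 1.10 ± 0.16 (SE, edgeR adjusted p = 0.00033). It was the only one of 13 tested macrophage and lymphocyte markers with a call, against 2.82% of all tested genes with a higher adult response. The sum of these markers was 97.6 and 118.6 CPM in LacZ neonatal, 85.7 and 110.4 in MGT neonatal, 116.6 and 121.0 in LacZ adult and 177.0 and 176.8 in MGT adult, with Cd3d at 0 throughout. The part of such cells was not tested. Bdkrb2, a bradykinin receptor, was at 0.396 and 0.427 CPM in LacZ neonatal, 0.45 and 0 in MGT neonatal, 0.447 and 0.225 in LacZ adult and 5.83 and 4.64 in MGT adult. Bdkrb2 differed in response by 4.77 ± 0.97 (SE, edgeR adjusted p = 0.0062). Npy6r, a neuropeptide Y receptor, was at 0.17 and 0.427 CPM in LacZ neonatal, 0.506 and 0.663 in MGT neonatal, 0.319 and 0.169 in LacZ adult and 5.27 and 4.78 in MGT adult. Npy6r differed in response by 3.42 ± 0.91 (SE, edgeR adjusted p = 0.037). Among the neonatal and adult groups, both were high in MGT adult libraries and near the floor elsewhere. In cells of the oldest mice of the series, Bdkrb2 also rose, from 0.925 and 0.743 CPM under LacZ to 3.66 and 5.09 under MGT. Npy6r rose there from 0.0578 and 0 to 1.83 and 0.88 CPM, below the MGT adult libraries. Mal, a membrane raft protein, rose from 0.453 and 0.747 to 2.7 and 1.93 and from 0.192 and 0.901 to 15.1 and 12.5 CPM. Mal differed in response by 2.66 ± 0.74 (SE, edgeR adjusted p = 0.046). The call was lost for Bdkrb2 without LacZ neonatal replicate 2 (estimates 3.84 to 9.75), for Npy6r without LacZ adult replicate 2, LacZ neonatal replicate 2, MGT adult replicates 1 or 2 or MGT neonatal replicates 1 or 2 (estimates 2.62 to 3.91) and for Mal under DESeq2, under limma voom, in the fit of the 8 libraries alone and without LacZ adult replicate 1, LacZ neonatal replicates 1 or 2, MGT adult replicates 1 or 2 or MGT neonatal replicate 2 (estimates 2.00 to 4.20).

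In some fibroblast genes the neonatal fall was the larger one. Lum, a small collagen-binding proteoglycan, fell from 38.1 and 37 to 9.1 and 7.11 CPM in neonatal and from 30.4 and 29.9 to 17.9 and 18 in adult cells. Lum differed in response by 1.46 ± 0.19 (SE, edgeR adjusted p = 0.0001). Dpp4, a surface peptidase of fibroblast progenitors, fell from 31.6 and 31.3 to 3.48 and 4.34 and from 13.7 and 11 to 5.02 and 4.5 CPM. Dpp4 differed in response by 1.64 ± 0.25 (SE, edgeR adjusted p = 0.0004). Wnt5a, a Wnt ligand, fell from 38.6 and 35.9 to 13.9 and 15.6 CPM in neonatal cells and stood at 31.9 and 28.6 and then 25.4 and 25.8 in adult cells, whose fall was not called (edgeR adjusted p = 0.2). In the opposite direction, Col14a1, a fibril-associated collagen, fell from 209.9 and 200.0 to 107 and 136 CPM in neonatal and from 92.1 and 50.9 to 12.3 and 13.2 in adult cells. Col14a1 differed in response by -1.73 ± 0.31 (SE, edgeR adjusted p = 0.002). Adult libraries ended far below neonatal ones. Col6a2, a chain of microfibrillar collagen, had overlapping controls, at 158 and 149 CPM in neonatal and 180.5 and 149 in adult cells, and fell to 110.5 and 107 in neonatal and 62.4 and 63.8 in adult cells. Mfap4, a microfibril-associated glycoprotein, went from 19.1 and 11.6 to 10.6 and 9.16 and from 25.4 and 25 to 6.26 and 7.07 CPM. Mfap4 differed in response by -1.29 ± 0.27 (SE, edgeR adjusted p = 0.0078). Of 26 tested fibroblast identity genes 4 were higher and 2 lower, and of 31 fibrillar matrix and cross-linking genes 1 was higher and 4 lower, against 2.82% and 1.67% of all tested genes; 1 of 31 is near that background. The Col6a2 call, -0.89 ± 0.21, was lost under DESeq2 and without LacZ neonatal replicates 1 or 2 or MGT adult replicates 1 or 2 (estimates -1.01 to -0.74), and the Mfap4 call without MGT adult replicate 1 (estimates -1.68 to -0.97).

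Other genes were already higher in adult controls and moved further apart under MGT. Il11, a cytokine that acts on fibroblasts, was at 1.36 and 1.01 CPM in LacZ neonatal, 1.52 and 0.904 in MGT neonatal, 8.56 and 12.5 in LacZ adult and 41.4 and 53.5 in MGT adult. It rose in adult cells only and was higher there under both vectors. Il11 differed in response by 2.12 ± 0.45 (SE, edgeR adjusted p = 0.0084), and the call was lost without LacZ neonatal replicate 1 (estimates 1.81 to 2.55). Spp1, osteopontin, stood at 37.7 and 44.6 and then 34.8 and 38.1 CPM in neonatal cells and rose from 294 and 385 to 726 and 825 in adult cells. Spp1 differed in response by 1.37 ± 0.18 (SE, edgeR adjusted p = 8.4e-05). Both genes have groups that do not overlap between ages. Tnc, the matrix protein tenascin C, stood at 861 and 932 and then 952 and 854 CPM in neonatal cells and rose from 1731 and 1301 to 3161 and 3042 in adult cells. Tnc differed in response by 1.02 ± 0.15 (SE, edgeR adjusted p = 0.00023). Cd55, a brake on complement, gave 1.05 ± 0.17 (SE, edgeR adjusted p = 0.00085). In these 4 genes neonatal libraries did not pass the test for a response. Of 26 tested myofibroblast genes 6 had a higher and 1 a lower adult response, and of 38 senescence-associated secretory factors 8 and 1, against 2.82% and 1.67% of all tested genes. Unlike the genes above, Tgfb2 and Igfbp4 were lower in adult than in neonatal controls. Tgfb2, a transforming growth factor, rose at both ages, from 74.3 and 71.3 to 151 and 211 and from 20.4 and 17.9 to 90.8 and 90.1 CPM, and Igfbp4, an insulin-like growth factor binding protein, fell at both, from 118 and 116 to 28.6 and 23.9 and from 52.5 and 70.6 to 39.7 and 49 CPM.

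Nr4a3, the nuclear receptor named in the title of the study, showed no detectable response difference. It was at 2.72 and 2.83 CPM in LacZ neonatal, 10.1 and 8.14 in MGT neonatal, 11.2 and 13.4 in LacZ adult and 37.6 and 44.8 in MGT adult. Each adult group lies above the neonatal group of the same vector, by 4.45-fold under LacZ and 4.5-fold under MGT, and it rose at both ages, 3.29-fold in neonatal and 3.33-fold in adult cells. The response difference was 0.02 ± 0.35 (95% interval -0.71 to 0.74, edgeR adjusted p = 0.99), and differences within that interval cannot be told from 0 here. In CPM the gain was 6.35 in neonatal and 28.9 in adult cells. Nr4a2 was not called either, at 0.10 ± 0.38 (95% interval -0.70 to 0.90).

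Its relative Nr4a1 did differ. It stood at 46.2 and 50.3 CPM in LacZ neonatal, 138 and 99.5 in MGT neonatal, 273 and 307 in LacZ adult and 244 and 286 in MGT adult. Neonatal cells rose while the adult groups overlap, and adult cells were higher under both vectors, with a response difference of -1.43 ± 0.19 (SE, edgeR adjusted p = 0.00013). Egr2, an immediate early zinc-finger factor, went from 20.7 and 19.5 to 24.4 and 24.3 CPM in neonatal and from 72.7 and 72 to 56.6 and 58 in adult cells. Egr2 differed in response by -0.62 ± 0.13 (SE, edgeR adjusted p = 0.0074), a call lost without LacZ neonatal replicate 2 (estimates -0.66 to -0.57). Dusp2, a phosphatase of MAP kinases, had 0 counts in LacZ adult and 0.372 and 0.416 CPM in MGT adult, against 1.13 and 1.33 in LacZ neonatal, and its call was lost without LacZ adult replicate 2, LacZ neonatal replicate 2, MGT adult replicates 1 or 2 or MGT neonatal replicate 2. Of 27 tested NR4A and immediate early genes 1 was higher and 2 lower, against 2.82% and 1.67% of all tested genes. Against the same shares, of 15 senescence inhibitors and markers 1 was higher, Plaur, and 1 lower, Pdcd4, an inhibitor of translation at -0.93 ± 0.15 (SE, edgeR adjusted p = 0.00085). Against those shares again, of 26 p53 targets 2 were higher, Perp and the kinase Plk2 at 0.84 ± 0.23 and 0.61 ± 0.11, and 1 lower, the stress gene Ddit4 at -0.66 ± 0.13. The Perp call was lost under DESeq2, under limma voom, in the fit of the 8 libraries alone and without LacZ adult replicate 1, LacZ neonatal replicates 1 or 2, MGT adult replicates 1 or 2 or MGT neonatal replicates 1 or 2 (estimates 0.71 to 0.99), and the Ddit4 call without MGT adult replicate 1 (estimates -0.76 to -0.55).

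Lower adult responses also came from genes that adult controls already expressed. Abi3bp, a matrix protein that binds the ABI3 adaptor, was at 0.453 and 0.48 CPM in LacZ neonatal, 21.4 and 25.2 in MGT neonatal, 8.05 and 6.76 in LacZ adult and 32.9 and 49.9 in MGT adult. Adult cells were higher under both vectors and gained more CPM, 34 against 22.8, although the response difference was -3.14 ± 0.39 (SE, edgeR adjusted p = 5.0e-05). Arhgap20, a GTPase activator, rose from 2.26 and 1.33 to 4.33 and 4.34 CPM in neonatal cells and stood at 13.7 and 11.8 and then 9.55 and 8.8 in adult cells. Arhgap20 differed in response by -1.74 ± 0.29 (SE, edgeR adjusted p = 0.0012). Cyp7b1, an oxysterol hydroxylase, fell from 20.6 and 21.7 to 4.09 and 3.53 CPM in adult cells, towards the neonatal 2.77 and 1.92 under LacZ and 1.35 and 1.81 under MGT. Cyp7b1 differed in response by -1.90 ± 0.43 (SE, edgeR adjusted p = 0.013). Its adult libraries stayed above the neonatal ones under both vectors. Trpm6, a magnesium channel, fell from 7.92 and 7.55 to 2.98 and 2.15 CPM, around the neonatal values of 2.83 and 2.56 under LacZ and 2.47 and 2.83 under MGT. Trpm6 differed in response by -1.56 ± 0.37 (SE, edgeR adjusted p = 0.017). Mfsd2a, a lipid transporter, stood at 6.05 and 5.97 and then 9.55 and 9.28 CPM in neonatal and 9.9 and 11.1 and then 7.44 and 8.38 in adult cells. Mfsd2a differed in response by -1.06 ± 0.23 (SE, edgeR adjusted p = 0.0092). Adult libraries of Mfsd2a were the higher ones under LacZ and the lower ones under MGT, where the gap was not called (edgeR adjusted p = 0.26). Lpl, lipoprotein lipase, fell from 354 and 269 to 141 and 137 CPM in adult cells. Lpl differed in response by -0.95 ± 0.17 (SE, edgeR adjusted p = 0.0021). Scara5, a scavenger receptor, had 1 count in LacZ neonatal and 0.562 and 1.51 CPM in MGT neonatal, against 1.98 and 1.13 in LacZ adult and 2.48 and 2.08 in MGT adult. Gdf10, a growth factor of the bone morphogenetic family, stood at 1.98 and 3.1 CPM in LacZ adult and 0.558 and 0.346 in MGT adult. In neonatal cells Gdf10 held only 6 counts under LacZ and 17 under MGT, and its neonatal response was not called. The call was lost for Cyp7b1 without LacZ neonatal replicate 2, MGT adult replicate 2 or MGT neonatal replicate 2 (estimates -2.18 to -1.65), for Trpm6 without LacZ neonatal replicate 2, MGT adult replicate 2 or MGT neonatal replicate 2 (estimates -1.82 to -1.35) and for Mfsd2a without MGT adult replicate 1 (estimates -1.15 to -0.96). It was lost for Scara5 under DESeq2, under limma voom, in the fit of the 8 libraries alone and without LacZ neonatal replicates 1 or 2, MGT adult replicates 1 or 2 or MGT neonatal replicate 2, and for Gdf10 without LacZ adult replicate 2, LacZ neonatal replicates 1 or 2, MGT adult replicates 1 or 2 or MGT neonatal replicate 1 (estimates -4.59 to -3.30).

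In 43 genes the order of the ages turned round between LacZ and MGT, 29 of them with a higher and 14 with a lower adult response. Cd24a, a surface glycoprotein, rose from 17.8 and 22 to 56.2 and 56.1 CPM in neonatal and from 6.71 and 11.1 to 133 and 147 in adult cells. Cd24a differed in response by 2.47 ± 0.24 (SE, edgeR adjusted p = 2.8e-06). Adult libraries were the lowest under LacZ and the highest under MGT. Bmp3, a bone morphogenetic protein, also rose at both ages, from 1.02 and 1.17 to 6.35 and 6.93 CPM and from 0.128 and 0.62 to 24.9 and 22.9. Bmp3 differed in response by 3.33 ± 0.60 (SE, edgeR adjusted p = 0.0021). In both genes the adult rise was the larger on the log2 and on the CPM scale. Pdk4, the kinase that shuts pyruvate out of oxidation, rose from 14.4 and 10.7 to 23.5 and 21.8 and from 7.73 and 8.68 to 52.2 and 60.9 CPM. Pdk4 differed in response by 1.93 ± 0.19 (SE, edgeR adjusted p = 3.9e-06). Ahrr, the repressor of the aryl hydrocarbon receptor, and Lvrn, an aminopeptidase, gave 2.19 ± 0.29 (SE, edgeR adjusted p = 0.0001) and 2.18 ± 0.35 (SE, edgeR adjusted p = 0.00074). Wnt7a, a Wnt ligand, went from 0.396 and 0.267 to 7.64 and 6.33 CPM in neonatal cells and from 2 counts to 12.2 and 11.1 CPM in adult cells, a ratio of 195 there (counting interval 53.6 to 1617). Its call was lost under DESeq2, under limma voom, in the fit of the 8 libraries alone and without LacZ adult replicates 1 or 2, LacZ neonatal replicates 1 or 2, MGT adult replicates 1 or 2 or MGT neonatal replicate 2. In the opposite direction Rrad, a small GTPase of muscle, rose from 2.6 and 3.15 to 13.1 and 20.2 CPM in neonatal cells and stood at 5.68 and 5.46 and then 6.95 and 7.9 in adult cells. Rrad differed in response by -2.12 ± 0.40 (SE, edgeR adjusted p = 0.0032). Plac8 did so by -1.44 ± 0.29 (SE, edgeR adjusted p = 0.0049).

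Fetal growth genes were mostly lower in adult cells under both vectors. Of 19 tested imprinted and fetal growth genes 15 started lower and 17 ended lower in adult cells, against 19.1% and 15.9% of all tested genes. The response was higher for 3 and lower for 1 (2.82% and 1.67% of all). Peg3, an imprinted zinc-finger gene, stood at 182 and 179 and then 175 and 153 CPM in neonatal cells and rose from 29.9 and 25.4 to 83.1 and 85.8 in adult cells. Peg3 differed in response by 1.75 ± 0.16 (SE, edgeR adjusted p = 1.3e-06). Meg3, an imprinted long noncoding RNA, gave 1.00 ± 0.19 (SE, edgeR adjusted p = 0.0029). Mest, an imprinted hydrolase gene, rose from 21.2 and 22.6 to 49.7 and 46 CPM in neonatal cells and stood at 1.66 and 2.76 and then 2.42 and 1.52 in adult cells. The Mest call, -1.30 ± 0.31, was lost under limma voom and without LacZ adult replicate 2, LacZ neonatal replicate 1, MGT adult replicate 2 or MGT neonatal replicate 1 (estimates -1.68 to -0.86). Among Schwann cell markers S100b alone of 6 tested was called, against 2.82% of all tested genes with a higher adult response. Its response difference was 2.34 ± 0.62, from 0.766 and 0.789 to 3.16 and 2.49 CPM in adult cells. The S100b call was lost without LacZ adult replicate 2, LacZ neonatal replicates 1 or 2, MGT adult replicates 1 or 2 or MGT neonatal replicates 1 or 2 (estimates 2.12 to 2.58). The 9 Schwann cell markers summed to 7.35 to 11.9 CPM in the 8 libraries, with Gfra3 and Sox10 at 0 in both adult groups, and their part was not tested.

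Cell division and respiration showed no called response difference. Of 48 tested cell cycle genes 0 were called by edgeR, DESeq2 or limma voom, 6 had an unadjusted p below 0.05, and the count without a library was 0 to 6. The median was -0.11, and the log2 response was higher in adult cells for only 7 of the 48. MGT lowered 20 of the 48 in adult and 0 in neonatal cells at the threshold of each age's own test (9.35% and 4.02% of all tested genes). Of 39 nuclear genes of oxidative phosphorylation 0 were called by the same tools, 1 had an unadjusted p below 0.05, and the count without a library was 0 to 5. The 39 oxidative phosphorylation genes had a median of -0.109, and the log2 response was higher in adult cells for only 2 of them. Of 8 tested cardiomyocyte carry-over markers 0 were called by these tools, with 3 at an unadjusted p below 0.05.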

How the data were processed

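RNA of 12 libraries was depleted of ribosomal RNA and sequenced after a stranded kit, per the labels' protocols, although the molecule field names polyadenylated RNA. Per the submitters' processing notes, reads were trimmed with Trimmomatic 0.36 and counted with featureCounts of Subread 1.5.1 on mm10. For the aligner and the strand setting of the counting, none is given here by a label or header, so overlapping antisense genes cannot be told apart. One deposited table holds raw counts of each gene and, beside them, FPKM (counts divided by library total and exon length), both computed by the authors per the file headers.

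Library totals recovered from counts and FPKM served as library sizes; the table holds 86.484% to 87.504% of them, and the rest was not analysed here. edgeR 4.0.16 in R 4.3.3 (filterByExpr, TMM) fitted 6 group means to all 12 libraries, with 6 residual degrees of freedom, and contrasts were tested with the quasi-likelihood F-test, Benjamini-Hochberg over 11940 genes, called below 0.05. A gap or response in the text was called in this same way. The standard error is the log2 estimate divided by the square root of F. CPM are TMM-scaled counts; fitted ratios use a prior count of 0.125. In simulated data 100%, 86%, 92% and 100% of genes with true response differences of -2, -1, 1 and 2 (50 each) were called. The changed genes averaged at least 5 CPM, so the rates do not cover less abundant genes. Of the unchanged genes in the simulated fit, which held 11842 genes in all, 12 were called. Every group was drawn with the same spread, so the wider LacZ adult pair (22.2 chi-square units per degree of freedom) was not imitated. Promoter sequences are from RefSeq (GRCm38.p6), matched by symbol for 9427 of the 11940 tested genes.

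Genes were named by rule: the 4 largest response differences in each direction and class among genes with at least 5 CPM in a group and at least 4 counts in each group, leaving out Gm and Rik names; the 4 most abundant in each direction among genes with 3 or fewer counts in a group; up to 3 called members of each list; and Mef2c, Gata4, Tbx5, Nr4a1, Nr4a2, Nr4a3, Tnnt2 and Myh6. Apba1, Arl6ip1, Cerk, Stat2, Irf9, Irf7, Irf1 and some further list members were added after their values were seen. The values of 1 listed gene are not reported here. The lists and rules were chosen with earlier results of these data known. Alternatives were RLE factors, column sums, other filters, a prior count of 2, DESeq2 1.42.0, limma voom 3.58.1, the 8 libraries alone, a replicate block, classes by size, and each of the 8 libraries left out.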

Additional observations from a re-analysis of the deposited data

Results flagged for a closer look

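The response to MGT differed between adult and neonatal cells by its own test for 536 genes, and the called genes named by rule are given here. Those named for size or abundance, or as genes of interest, with a higher adult response (log2 response difference) were Upk1b at 6.04, Bdkrb2 at 4.77, Tnnt2 at 4.75, Ptprq at 4.19, Flt1 at 4.17, Lrrc3b at 4.14, Krt7 at 3.60, Npy6r at 3.42, Bmp3 at 3.33, Ifi27l2b at 3.25, Itga7 at 3.08, Csf3 at 2.84, Mal at 2.66, Cd24a at 2.47, Ahrr at 2.19, Lvrn at 2.18, Tbx5 at 1.37 and Mef2c at 0.94. With a lower adult response they were Abi3bp at -3.14, Mx1 at -2.99, Rrad at -2.12, Cyp7b1 at -1.90, Cxcl10 at -1.80, Arhgap20 at -1.74, Col14a1 at -1.73, Trpm6 at -1.56, Mx2 at -1.51, Rsad2 at -1.51, Cmpk2 at -1.48, Plac8 at -1.44, Nr4a1 at -1.43, Mfap4 at -1.29, Iigp1 at -1.21, Slfn8 at -1.09 and Mfsd2a at -1.06.

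Further called members of the gene lists were named by rule. With a higher adult response (log2 response difference) they were Nppa at 3.02, Cspg4 at 2.88, Nppb at 2.86, Kcnj5 at 2.82, S100b at 2.34, Myocd at 2.27, Emcn at 2.13, Il11 at 2.12, Ccl20 at 2.07, Pdk4 at 1.93, Des at 1.83, Peg3 at 1.75, Igfbp4 at 1.68, Dpp4 at 1.64, Lum at 1.46, Spp1 at 1.37, Plaur at 1.24, Pecam1 at 1.17, Csf1r at 1.10, Wnt5a at 1.10, Cd55 at 1.05, Tnc at 1.02, Meg3 at 1.00, Tgfb2 at 0.93, Perp at 0.84, Plk2 at 0.61 and Tagln at 0.50. With a lower adult response they were Gdf10 at -4.001, Mest at -1.30, Lpl at -0.95, Pdcd4 at -0.93, Col6a2 at -0.89, Tap2 at -0.79, Slc8a1 at -0.76, H2-Q4 at -0.68, Ddit4 at -0.66 and Egr2 at -0.62.

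In 9 further genes a group held 3 or fewer counts, so the highest group mean is given in place of a fitted ratio. With a higher adult response, Xirp2 reached 190.8 CPM in MGT adult, Myl7 61.0 CPM in MGT neonatal, Bnc1 47.1 CPM in LacZ neonatal, Casq2 36.0 CPM in MGT neonatal, Wnt7a 11.7 CPM in MGT adult, Krt18 11.4 CPM in MGT neonatal and Dusp2 1.23 CPM in LacZ neonatal. With a lower adult response, Myh8 reached 2.60 CPM in MGT neonatal and Scara5 2.28 CPM in MGT adult. No cause of these differences was tested.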

How the results depend on the processing

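No called gene changed direction under any alternative: all 536 had the same sign in each (535 where at least 1 CPM in 2 libraries was required, since 1 gene was not tested there). Estimates that were not called crossed 0 for Nr4a2 (-0.30 to 0.71), Nr4a3 (-0.13 to 0.19) and Myh6 (-0.11 to 0.12). Of 81 called named genes, 48 were called in every setting and 33 were lost in at least 1, of which 14 only when a library was left out. DESeq2 called 475 of the 536, limma voom 486 and the fit of the 8 libraries alone 433. Without a low-count filter 328 genes had a lower adult response and 329 had both gaps of one sign. Sorting by size of the gaps gave 94 with both gaps of one sign and 72 of opposite signs. Genes with neither gap called, 3 in all, were 1 with RLE factors, 6 with DESeq2, 0 with limma voom and 0 with the 8 libraries alone.

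Leaving out each of the 8 libraries gave 218 to 877 genes with a higher and 68 to 519 with a lower adult response, the highest counts without LacZ adult replicate 1. Gaps reached numbered 2342 to 4368, neonatal responses 630 to 1490 and adult responses 1471 to 3579. Only a starting gap was called for 89 to 577, only a gap reached for 53 to 217, both of one sign for 106 to 497, both of opposite signs for 22 to 92 and neither for 0 to 13. A group left with 1 library is assumed to vary like the others.

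Deviations of same-numbered LacZ and MGT libraries correlated at 0.00812 in neonatal, 0.0996 in adult and 0.00767 in 18-month cells. The labels do not say whether same-numbered libraries share a culture, and low correlations cannot exclude it. With the replicate block within age 622 genes were called, 389 higher and 233 lower, with 26 of opposite gaps and 37 with neither gap called. With 2 libraries a group, genes near the count floor carry the widest errors, and 16 of the 536 had a group with 3 or fewer counts.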
